A study of Mus musculus with 4 samples.

Results

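Outside its densest 10 Mb window, chromosome 8 of Neuro-2A cells held 263 of the 4638 listed peaks of the transcription factor Zac1 (5.67%). They are the peaks of the deposited table on chromosome 8 whose midpoint lies below 120 Mb or at or beyond 130 Mb (mouse build mm9). The window between those limits held the other 237 peaks of the chromosome. Neuro-2A is a mouse neuroblastoma line (strain given as Swiss Albino), and all cells had been transfected with the expression plasmid pRK5-Zac1 and fixed 16 hours later. The series has 2 libraries of chromatin precipitated with an in-house anti-Zac1 antibody (ChIP) and 2 of input chromatin, which received no antibody. The table gives 1 ChIP count and 1 input count per peak, and whether both libraries entered each is not given in the sources used here. There is therefore no replicate spread and no test across replicates, and the intervals below are exact 95% intervals that cover counting error only. Because the protein was overexpressed from a plasmid, the peaks describe binding of introduced as well as any endogenous Zac1.

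Zac1, encoded by the imprinted gene Plagl1, is a zinc finger protein that binds GC-rich DNA and activates or represses transcription. It is known for restraining cell proliferation and for acting on a network of imprinted genes. In ChIP-seq, a bound site appears as a pile of reads whose forward and reverse strand maxima (summits) flank the site, and input chromatin shows how many reads the same place gives without precipitation. Input reads also depend on how much DNA of a place is present and how well its reads can be mapped, so they are given beside the ChIP reads throughout. A fold is the number of ChIP reads over input reads, with input first multiplied by a scaling constant of 0.696. This constant was estimated here from the authors' deposited window folds. Peaks enter such a list for an excess of ChIP over input in these same reads. Folds of listed peaks are therefore raised by that choice and are no independent estimate of enrichment.

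The peaks of chromosome 8 outside the densest window lay in separate groups along the chromosome, with long empty stretches between them. By 10 Mb windows, 51 peaks (19.4%) lay from 10 to 20 Mb, 45 (17.1%) from 90 to 100 Mb and 37 (14.1%) from 20 to 30 Mb. The windows from 80 to 90 and from 110 to 120 Mb held 24 each, that from 70 to 80 Mb held 21 and that from 100 to 110 Mb held 18. Fewer lay from 40 to 50 Mb (14), from 30 to 40 Mb (13) and below 10 Mb (11). From 50 to 60 Mb there were 2 peaks, from 60 to 70 Mb there was 0, and beyond 130 Mb there were 3. How much mappable sequence the windows at both chromosome ends hold was not checked. Their low counts are therefore not read as sparse binding. The longest stretch without a peak ran from 56206133 to 71573429, and the next from 98376847 to 106715420.

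At 1 Mb resolution, 53 of the 122 bins up to the last listed peak, without the densest window, held any peak. In 10 bins with 10 or more peaks lay 131 peaks (49.8%). The share of all listed peaks in bins this full was not computed, so the 49.8% cannot be called particular to this part. The fullest bin, from 97 to 98 Mb, held 19 peaks with 1636 ChIP and 83 input reads. It was followed by the bins starting at 13 Mb (17 peaks), 26 Mb (16), 90 Mb (14), 12 Mb (13) and 86 Mb (12). The bins starting at 11, 28, 87 and 108 Mb held 10 each. In bins with 5 or more peaks lay 196 of the 263 peaks (74.5%), against 79.6% of all peaks in the table. Concentration into such bins is thus a feature of the whole list. In the densest window, which the rule left out, 99.6% of peaks lay in such bins. That the share was not greater here follows in part from this choice.

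**Figure D1:**
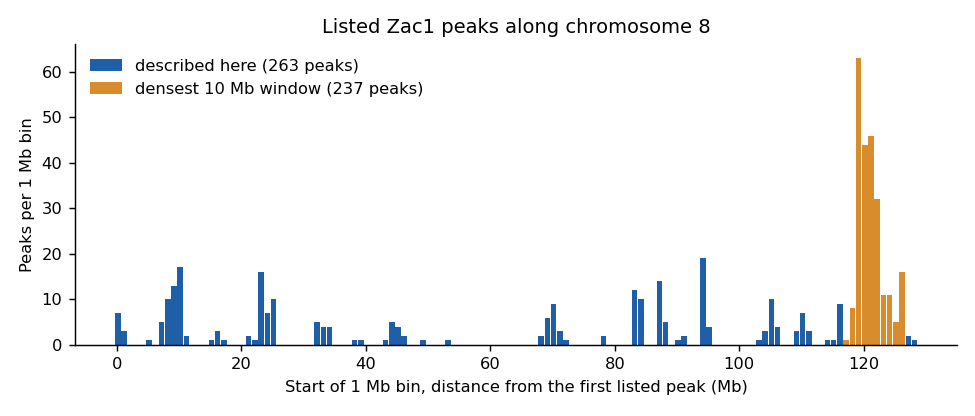
Listed Zac1 peaks per 1 Mb bin of chromosome 8; the horizontal axis is the distance of the bin's start from the first listed peak in Mb, and bars are counts. The 263 peaks described here form groups of at most 19 per bin, whereas the densest window reaches 63 in 1 bin.

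The limit at 120 Mb lies at the edge of a group of peaks. The bin from 119 to 120 Mb held 9 peaks, the bin from 120 to 121 Mb held 1 and that from 121 to 122 Mb held 8, before the count rose to 63 from 122 to 123 Mb. The last peak below the limit (119994261 to 119994340) had 69 ChIP and 6 input reads, and the first beyond it (120061625 to 120061692) had 56 and 2. At the upper limit, the last peak of the excluded window (129587699 to 129587757) had 48 ChIP and 2 input reads, and the next peak (130040026 to 130040064) had 81 and 8. The first listed peak of the chromosome, from 3279615 to 3279742, had 74 ChIP and 9 input reads, and its last, from 131075888 to 131075916, had 56 and 4.

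Read support of these peaks was close to that of the remaining list. They held 21839 ChIP reads, 83.0 ± 31.4 per peak (SD over 263 peaks), and 1178 input reads, 4.48 ± 3.15 per peak. The other 4375 peaks held 83.7 ± 34.9 ChIP and 4.38 ± 3.32 input reads per peak. The ratio between the sets was 0.992 for ChIP (95% interval 0.978 to 1.01) and 1.02 for input (0.964 to 1.09), and both intervals include 1. In the table as a whole there were 388156 ChIP and 20321 input reads within peaks, and the fullest window of the weaker strand held at least 16 reads in every peak. A total of 60 of the 263 peaks (22.8%) sat exactly at that lower bound, against 22.1% of all peaks.

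Single peaks ranged from 36 to 233 ChIP reads, with a median of 77 and quartiles of 62 and 94. Input ranged from 0 to 15 reads with a median of 4, whereas the densest window of the chromosome and the rest of the genome reached 57 and 42. Over all 263 peaks, ChIP exceeded scaled input 26.6-fold (25.1 to 28.3), against 27.5-fold (27.1 to 27.9) over the other peaks. The 237 peaks of the densest window stood at 22.4-fold (21.2 to 23.7) and held 5.68 ± 4.94 input reads each. Per peak, the places described here had 0.789 times the input reads of that window (0.729 to 0.853) and 0.937 times its ChIP reads (0.920 to 0.955). Peaks of 1 stretch are not independent of each other, so these intervals are too narrow as a measure of how far stretches differ.

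In 255 of the 263 peaks (97.0%) the lower bound of the fold exceeded 5, where 97.6% of all peaks passed this limit. It exceeded 10 in 143 (54.4%), against 58.3% of all peaks. Among the 1000 best ranked peaks of the authors' list were 55 (20.9%), against a background of 21.6%. Both strands reached 28 or more reads in their fullest window in 9 peaks (3.42%, interval 1.58 to 6.40), against 4.55% of all peaks. For each of these limits the share over all peaks lay within the interval of the members' share.

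**Figure D2:**
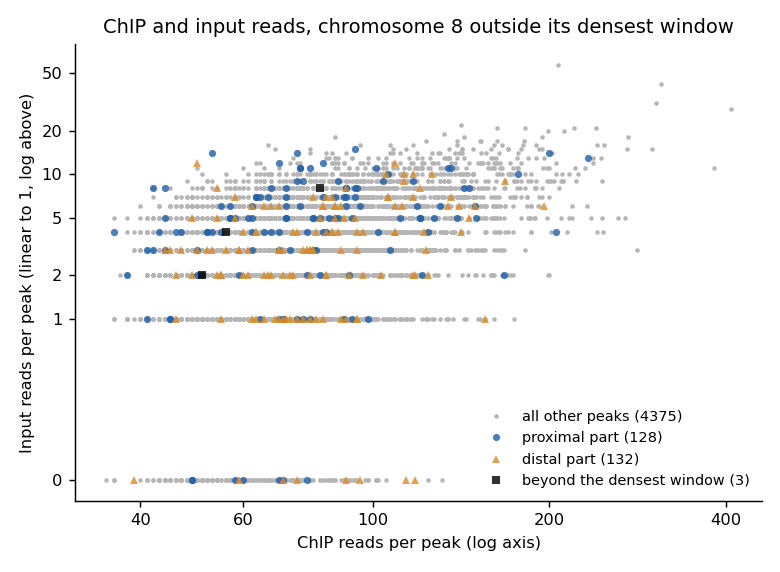
ChIP reads (log axis) and input reads (linear to 1, logarithmic above) of every listed peak; coloured points are the 263 peaks described here, split into those below 60 Mb (proximal), from 70 to 120 Mb (distal) and beyond 130 Mb, and grey points are the other 4375 peaks. The coloured points lie within the grey cloud, between 36 and 233 ChIP reads and at no more than 15 input reads.

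The strongest single site by the authors' rank was at 26180842 to 26180901, with an authors' rank of 11. It had 200 ChIP reads, 114 on the forward and 86 on the reverse strand, and 14 input reads, which is a 20.5-fold excess (11.9 to 38.2). In the authors' deposited table its largest window log2 fold was 6.07, the highest of the 263 peaks, and the strand summits lay 60 bp apart. With 1 added to both counts, 66 ChIP reads and no input read in a window give this value. It therefore reflects the ChIP count of a window without input, not a measured ratio. The interval of the region's fold includes the 26.6-fold of all 263 peaks, whereas its busiest window, with 66 ChIP reads, was the second fullest. The authors' rank follows the window fold, not the region's reads. Together with its surroundings, from 26127126 to 26707653, joined at distances of up to 100 kb, 14 peaks held 1208 ChIP and 90 input reads, a 19.3-fold excess (15.6 to 24.2). Besides the site itself, the best ranked of them was at 26625517 to 26625570, with 124 ChIP and 4 input reads and rank 281, and 5 of the 14 had a rank of 4472 or later.

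The second best ranked site (97509188 to 97509321, rank 27) had 196 ChIP reads and 6 in the input, a 46.9-fold excess (21.2 to 129.4). It belongs to the largest group at that joining distance, 15 peaks from 97305860 to 97687032 that summed to 1327 ChIP and 65 input reads (29.3-fold, 22.9 to 38.2). At 114250238 to 114250266 (rank 47) there were 146 ChIP reads and 5 in the input, 41.9-fold (17.6 to 131.1). At 107795684 to 107796050 (rank 68) the counts were 117 and 2. All of these sites thus combined at least 117 ChIP reads with at most 6 input reads, unlike the site at 26.18 Mb with its 14.

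Near 28 Mb, a 106 bp peak at 28201732 to 28201837 (rank 71) had 205 ChIP reads, 107 forward and 98 reverse, against 4 input reads (73.6-fold, 28.3 to 272.8). It closes a run of 4 peaks within 7.41 kb whose other members, from 28194427 on, had 57, 82 and 90 ChIP reads and 5, 4 and 6 input reads. Nearby, 149 ChIP and 6 input reads were counted from 28105053 to 28105092 (rank 153). A 625 bp peak from 28217048 to 28217672 had 146 and 8. The 9 peaks from 28071697 to 28217672 reached 32.1-fold together (23.6 to 44.6).

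At the proximal end, 6 peaks lay within 148 kb, from 3493094 to 3641457, and 4 of them were among the 1000 best ranked. The best of them, at 3636628 to 3636684 (rank 93), had 121 ChIP reads and 2 in the input, and that at 3603458 to 3603518 (rank 185) had 92 and 1. Broader neighbours at 3606611 to 3606782 and at 3641188 to 3641457 had 177 and 167 ChIP reads against 10 and 2 input reads. The first of these had the more uneven strands, with 105 forward and 72 reverse reads. Together the 6 peaks held 733 ChIP and 26 input reads, a 40.5-fold excess (27.4 to 62.4). The interval of all 263 peaks reached up to 28.3-fold and thus overlaps its lower end.

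The largest ChIP count was found at 49075221 to 49075295, with 233 reads, 120 forward and 113 reverse, against 13 input reads (25.7-fold, 14.8 to 49.1). Its authors' rank was 338, and the busiest window held 44 ChIP reads, a smaller part of its reads than at 26.18 Mb. A second peak 1.31 kb away, at 49076434 to 49076695, had 120 ChIP and 5 input reads. Of the remaining sites in the first 10 by rank, that at 13441528 to 13441721 (rank 173) had 150 ChIP and 5 input reads. The site at 108467055 to 108467495 (rank 175) had 114 ChIP reads and no input read. Against the floor of 3 input counts per peak, which leaves out the error of the ChIP count, the latter was at least 54.6-fold higher than input, and the lower limit of its exact interval was 43.7-fold.

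Input reads per peak, and with them the fold, varied between windows of the chromosome. From 30 to 40 Mb the 13 peaks held 6.92 ± 2.02 input reads each, and from 20 to 30 Mb the 37 peaks held 5.95 ± 3.80. From 70 to 80 Mb the value was 3.19 ± 2.36 over 21 peaks, and from 110 to 120 Mb it was 2.79 ± 1.89 over 24 peaks. The ratio of the highest to the lowest of these windows was 2.48, and since they were picked as extremes, a ratio above 1 was fixed by the choice. ChIP reads per peak in the same windows were 75.5 ± 19.03 and 73.5 ± 23.4. The corresponding folds were 15.7 (12.6 to 19.7) from 30 to 40 Mb and 37.8 (29.6 to 49.0) from 110 to 120 Mb, and 0 of the 13 peaks from 30 to 40 Mb were among the 1000 best ranked, against 21.6% of all peaks. The rank follows the window fold and is not independent of input.

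Pooled over limits chosen after the values were seen, 101 peaks from 10 to 40 Mb held 5.44 ± 3.46 input and 79.8 ± 30.3 ChIP reads each. The 132 peaks from 70 to 120 Mb held 3.72 ± 2.65 input and 83.9 ± 27.96 ChIP reads. The input ratio was 1.46 (1.29 to 1.65), and the folds were 21.1 (19.3 to 23.0) and 32.4 (29.6 to 35.5). The stretches were not uniform: from 90 to 100 Mb, input stood at 4.64 ± 2.97 reads per peak, and from 10 to 20 Mb at 4.69 ± 3.36. Peaks of the other chromosomes held 4.30 ± 3.19 input reads on average. Amount of DNA and mappability of these stretches were not tested.

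**Figure D3:**
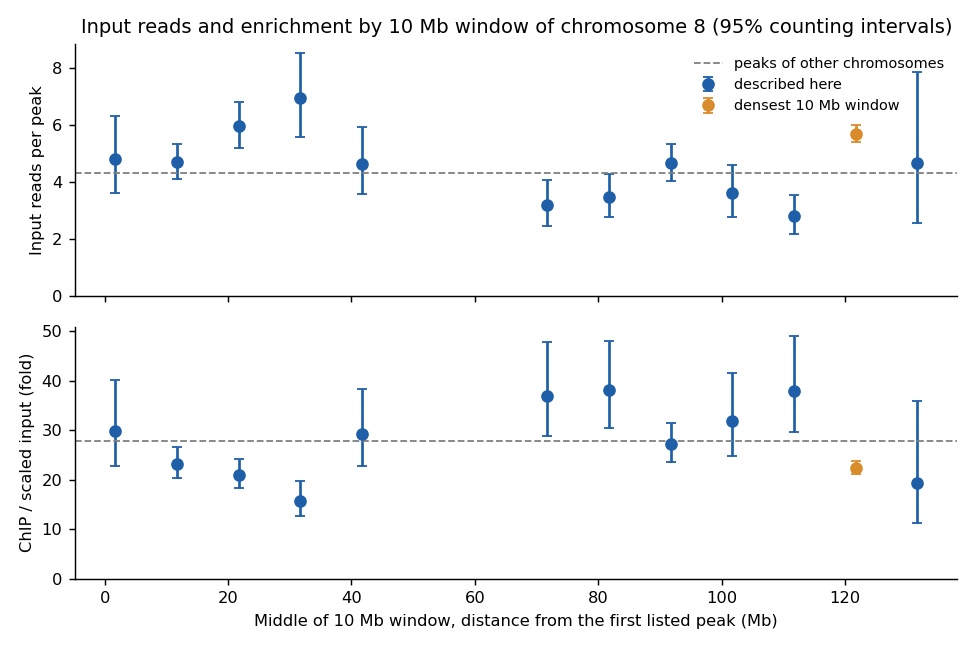
Input reads per peak (upper panel) and fold of ChIP over scaled input (lower panel) for each 10 Mb window of chromosome 8 with 3 or more peaks; the horizontal axis is the distance of the window's middle from the first listed peak in Mb, bars are exact 95% counting intervals, and dashed lines mark peaks of the other chromosomes. Input is highest from 30 to 40 Mb (6.92) and lowest from 110 to 120 Mb (2.79), where the folds are 15.7 and 37.8; input is the denominator of the fold.

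A small stretch between 19 and 21 Mb held 2 of the 5 lowest folds. Its 4 peaks had 257 ChIP and 49 input reads, 12.2 input reads per peak and a 7.53-fold excess (5.53 to 10.4). At 19784466 to 19784579 the counts were 53 and 14, a 5.44-fold excess (2.97 to 10.6), the lowest of the 263. This peak also has the last rank of the table, 4688, and a false discovery rate of 0.000239 in the authors' deposited table, the highest listed. The peak from 19982858 to 19983057 had 42 ChIP reads and 8 in the input, and that from 19772515 to 19772609 had 69 and 12. The last of the 4, from 20020345 to 20020374, had 93 and 15 (8.91-fold, 5.13 to 16.5). It held the most input reads of the 263 and also the fullest single window, 70 ChIP reads, above the 66 of the site at 26.18 Mb. Its rank was 4647, against 11 for the site at 26.18 Mb.

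The other low folds lay elsewhere. The peak from 98376643 to 98376847 had 50 ChIP reads and 12 in the input (5.99-fold, 3.14 to 12.3), beside a peak at 98376306 to 98376334 with 109 and 12. At 13676407 to 13676709 the counts were 74 and 14 (7.59-fold, 4.25 to 14.6), and at 27375454 to 27375671 they were 44 and 8. In all, 21 of the 263 peaks (7.98%) had 10 or more input reads, against 6.94% of all peaks. Of these 21, 15 were among the 128 peaks below 60 Mb and 6 among the 132 from 70 to 120 Mb. The stretch from 19 to 21 Mb alone held 3 of the 15.

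At the other extreme, 15 peaks (5.70%) had no input read, against 5.22% of all peaks. By the floor of 3 counts, which leaves out the error of the ChIP count, they stood at least 18.7-fold to at least 56.5-fold above input. With that error included, the lower limits of their exact intervals ran only from 14.5-fold to 45.2-fold. A few groups, picked after their values were seen, held little input. From 86449629 to 86552618, 6 peaks held 595 ChIP reads and only 8 input reads, a 106.8-fold excess (53.9 to 248.6). Their ChIP counts were 118, 155, 61, 90, 103 and 68, and their input counts 0, 1, 3, 1, 2 and 1. The 653 bp peak at 86462576 to 86463228, the longest of the 263, belongs to them. Further along, 4 peaks within 2.80 kb (86721476 to 86724274) held 408 ChIP and 25 input reads, 23.4-fold (15.7 to 36.7), and the intervals of these neighbouring groups do not overlap. Near 13 Mb, 3 peaks from 12952877 to 12965871 had 78, 49 and 70 ChIP reads and a single input read in all.

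Close neighbours were somewhat less frequent than in the list as a whole. The rule left out the chromosome's densest window, whereas the list keeps its dense windows. A lower share here follows in part from that choice, and neighbouring peaks are not independent, so no conclusion is drawn from it. Another listed peak lay within 10 kb of 89 of the 263 peaks (33.8%, interval 28.1 to 39.9), against 41.1% of all peaks. The share was 40.1% (38.6 to 41.6) on the other chromosomes and 66.7% (60.3 to 72.6) in the densest window. The median distance to the nearest peak was 21.4 kb here, 5.57 kb in the densest window and 15.9 kb on the other chromosomes. Joined at up to 10 kb, 38 groups took in 89 peaks, of which 29 were pairs, 5 were triplets and 4 had 4 peaks. No group was larger, whereas the table's largest has 17. Beyond the runs at 28.19 and 86.72 Mb, the groups of 4 were at 97416977 to 97425575 (348 ChIP reads, 19 in the input) and at 119896075 to 119912409 (275 and 14). The run at 97.42 Mb includes a 644 bp peak with 140 ChIP and 6 input reads, and its other members had 53 to 79 ChIP reads. Peaks with a neighbour within 10 kb had a median of 85 ChIP reads and those without had 74, with folds of 29.8 (26.9 to 33.0) and 25.1 (23.3 to 27.0). Whether neighbours share read tails was not tested.

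**Figure D4:**
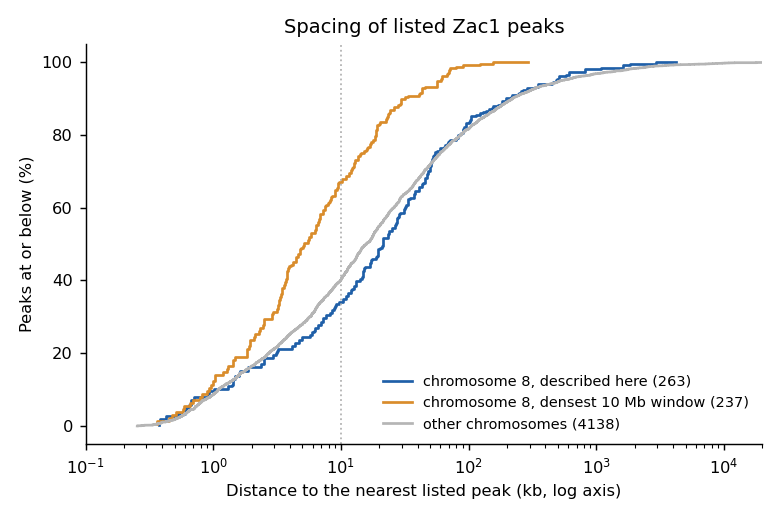
Cumulative share of peaks by distance to the nearest listed peak (kb, log axis) for the 263 peaks described here, the 237 of the densest 10 Mb window and 4138 of other chromosomes; the dotted line marks 10 kb. At 10 kb the curves stand at 33.8% and 66.7% on chromosome 8, and from about the third quartile (55.5 kb here) the described peaks and the other chromosomes run together.

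The strands were close to balanced, which the minimum of 16 reads in the fullest window of each strand favours. The forward strand carried 50.1% of ChIP and 50.2% of input reads, and between 36.5% and 62.3% of ChIP reads in single peaks. The reverse summit lay a median of 67 bp beyond the forward summit, and in the 222 peaks with summits in that order it was equal to the listed length in 192. In 41 peaks (15.6%, interval 11.4 to 20.5) the summits were inverted or coincided, against 12.3% of all peaks. These had a median length of 363 bp and 5.66 input reads per peak, against 74 bp and 4.26 in the others, and folds of 22.2 (19.4 to 25.4) and 27.7 (26.0 to 29.6). The listed length equalled the summit distance in 0 of these 41, since a distance of 0 or less cannot equal a length. Length is thus tied to summit order in this list. Neither the length contrast nor inverted summits in the longest peaks are read as separate traits of the sites. A length of 200 bp or more was listed for 50 peaks (19.01%, interval 14.5 to 24.3), against 15.4% of all peaks. The 5 longest, at 13.24, 28.22, 86.46, 97.42 and 112.26 Mb, spanned 604 to 653 bp. All 5 had inverted summits, by 51 to 228 bp, and between 123 and 155 ChIP reads. The last of them, at 112260944 to 112261547, had 123 ChIP and 3 input reads.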

How the data were processed

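Per the file headers, the deposited table comes from CisGenome, and the submitters' processing notes name the build mm9. Aligner, filters, thresholds and pooling of replicates: not given in the sources used here. It holds the authors' raw read counts per peak for ChIP and input, their parts by strand and window, a false discovery rate (used like a p-value), a strand balance as a fraction and a rank, treated as the authors' score. The authors deposited the largest window fold as log2 with a pseudocount of 1. It was matched within 2e-05 by whole window counts in 4638 of 4638 peaks with input multiplied by 0.696, and in 3900 unscaled. The 0.696 was estimated here from these same folds, so the match is no independent check of it.

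No filter was applied. Folds and ratios carry exact (Clopper-Pearson) 95% intervals after conditioning on summed reads, shares exact binomial and plotted input levels exact Poisson ones (Python 3.11.15, scipy 1.17.1, tested on simulated data). They cover counting error only, since each peak has 1 value per kind of chromatin. Whether PCR copies were removed is not given in the sources used here, and copies left in would make the intervals too narrow. Depth is given as reads within peaks.

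Peaks, limits and lists were chosen with earlier results of these data known. A set rule named the 10 best ranked sites, the 5 extremes by ChIP, input, fold and length, those at limits and ends, and runs of 4 within 10 kb. Other sites and all groups joined at 100 kb were chosen after their values were seen. Since no mm9 annotation was used here, peaks were not assigned to genes and no sequence was read.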

Additional observations from a re-analysis of the deposited data

How the results depend on the processing

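The number of peaks described, 263, was 127 among the 2319 best ranked, 55 among the 1000 best ranked and 93 with at least 20 reads in the fullest window of each strand, which are smaller lists. Their share of the list stayed between 5.44% and 6.20%, and merging within 1 or 10 kb left 250 or 212. Whichever 10 Mb window was fullest held between 18.1% and 21.5% of them under 5 alternatives. It was not always the window from 10 to 20 Mb. With at least 20 reads in the fullest window of each strand it was the one starting at 20 Mb. Among the 2319 best ranked it was the one starting at 90 Mb. The shares therefore do not show that the same place stayed fullest. The fold of 26.6 became 18.5 with unscaled input and 20.1 in the busiest windows alone. It was 39.3 among the 2319 best ranked, 46.2 among the 1000 best ranked and 28.8 with at least 20 reads in the fullest window of each strand, and the rank itself rests on fold. Input reads per peak relative to all other peaks, 1.02, were 0.907 among the 2319 best ranked and 0.861 among the 1000 best ranked, so no direction is drawn from them. ChIP reads relative to all other peaks, 0.992, were 1.03 among the 1000 best ranked. The cause was not tested. The input ratio of 10 to 40 Mb over 70 to 120 Mb, 1.46, was 1.29 after merging within 10 kb, which sums the reads of neighbours, and between 1.36 and 1.53 under 5 other alternatives, all 6 chosen after seeing the data. These include leaving out the peaks from 19 to 21 Mb (1.39) and the 5 highest inputs (1.36). No paired analysis was possible because each peak has 1 value per kind of chromatin, which also means that leaving out a replicate was not possible. Sites below 16 reads in the fullest window of either strand are not in the list, and input counts of 0 to 15 per peak limit every single fold.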
